A study of Mus musculus with 9 samples.

Results

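Imprinted genes are read from 1 parental copy only, because DNA methylation laid down in the egg or the sperm marks 1 of the 2 copies of a control region near them. Most lie in clusters in which maternally and paternally expressed genes sit side by side under a shared control region. After fertilization that methylation is copied at each cell division by Dnmt1, the maintenance DNA methyltransferase, while factors such as the zinc finger protein Zfp57 protect it. Many imprinted genes code for growth regulators of the embryo, and several are strongly expressed in fetal lung.

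The 31 genes described here were chosen by their symbols in the expression table, which holds 27207 genes, and cover imprinted clusters other than those of H19 and Igf2r. By textbook knowledge 15 are paternally and 16 maternally expressed. Of the latter, Blcap, Gnas, Ppp1r9a, Copg2, Ube3a, Osbpl5 and Cobl are known as imprinted only in some tissues, cell types or transcripts. Reads were not assigned to parental alleles, so every value is the summed output of both copies, and the parental class is background. DNA methylation itself was not measured in the files used here. Each of the 31 passed the filter on low counts.

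The values come from RNA sequencing of whole mouse lungs at E18.5, close to birth. Of the 9 libraries, 3 are wild type and 6 come from a conditional knockout of Dnmt1 (CKO). In 3 of the mutant lungs, here weak CKO, the organ was small (hypoplastic) but free of bleeding. In the other 3, strong CKO, small lungs were widely haemorrhagic. Both mutant groups carried the genotype Tbx4-rtTA, Tet-O-Cre and Dnmt1-D/D, and the wild type label names no transgene. Tbx4-rtTA is a driver used to target lung mesenchyme, so other cells of a whole lung can keep Dnmt1, and fewer cells of a type cannot be told apart from less RNA per cell. Library names keep the form of the titles, where WT, MUT_W and MUT_S mark wild type, weak and strong lungs and a number follows. The labels do not say that the lungs came from separate litters, so p-values measure only the spread between these samples.

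Total counts ran from 25607595 to 33156732 per library. Levels are CPM, counts relative to the TMM-adjusted library total, changes are log2 changes with their standard error (SE), and a gene was called where edgeR's quasi-likelihood test gave a Benjamini-Hochberg adjusted p under 0.05 over all 19374 genes tested. Dnmt1 RNA stayed present in the mutants, at 79.1 to 121 CPM in wild type, 59.1 to 80.6 in weak CKO and 62.0 to 78.7 in strong CKO, and was lower over both CKO groups by −0.52 ± 0.14 (adjusted p = 0.0235). That call ended without WT_268_1 (−0.35), WT_549_2 (−0.53), MUT_W_268_3 (−0.51), MUT_S_265_5 (−0.48) or MUT_S_860_3 (−0.50). Summed levels of marker genes also moved with the groups. The 8 mesenchyme markers summed to 7528 to 10040 CPM in wild type, 5649 to 6799 in weak CKO and 5640 to 6048 in strong CKO, and 6 of them fell and 1 rose over both CKO groups. All 6 endothelial markers fell, with sums of 2018 to 2628, 1792 to 1837 and 1331 to 1670 CPM in the same order of groups, as did 2 of 5 alveolar type 2 markers (10940 to 15980, 11540 to 11810 and 8651 to 10410). All 5 macrophage markers (95.7 to 136, 192 to 224 and 190 to 267), 3 of 4 airway (938 to 1525, 2070 to 2917 and 2183 to 3634) and 3 of 5 smooth muscle markers (231 to 342, 383 to 502 and 405 to 662) rose. So did 4 of 5 neuroendocrine, 3 of 5 tested nerve, 2 of 4 striated muscle and 1 of 3 mesothelial markers, and of 3 tested cartilage markers 1 rose and 1 fell. None of 6 erythroid markers was called by edgeR over both CKO groups, and none reached an unadjusted p under 0.05. Their sums were 3911 to 7354, 3760 to 4367 and 6736 to 12640 CPM. That comparison averages opposite shifts. All 6 were below 0 in weak CKO (median log2 change −0.44) and above 0 in strong CKO (0.64), with none called in either. Of the 5 alveolar type 2 markers, none was called in weak CKO, while all 5 fell in strong CKO. Among all markers looked at, Matn1 alone was at 0 in any library. The part of these shifts in the results below was not tested.

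The sequences below belong to 5 of the called genes, shown for the density of CpG dinucleotides, the sites that Dnmt1 methylates, around their start sites. Each is the RefSeq window of 300 bases (250 before and 50 after a start, build GRCm38.p6), printed 5′ to 3′ on the strand of the gene, with every CG in capitals. The windows lie at chr7:6730333-6730632 (+) for Usp29, chr7:6696383-6696682 (−) for Zim1, chr10:13090582-13090881 (+) for Plagl1, chr11:12037371-12037670 (−) for Grb10 and chr12:109452573-109452872 (+) for Dlk1.
Usp29: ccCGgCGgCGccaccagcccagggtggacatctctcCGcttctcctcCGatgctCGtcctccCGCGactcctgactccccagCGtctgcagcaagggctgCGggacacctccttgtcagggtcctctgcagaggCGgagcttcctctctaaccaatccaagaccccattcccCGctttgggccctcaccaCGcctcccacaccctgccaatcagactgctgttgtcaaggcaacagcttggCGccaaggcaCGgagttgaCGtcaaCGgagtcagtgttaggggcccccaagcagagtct
Zim1: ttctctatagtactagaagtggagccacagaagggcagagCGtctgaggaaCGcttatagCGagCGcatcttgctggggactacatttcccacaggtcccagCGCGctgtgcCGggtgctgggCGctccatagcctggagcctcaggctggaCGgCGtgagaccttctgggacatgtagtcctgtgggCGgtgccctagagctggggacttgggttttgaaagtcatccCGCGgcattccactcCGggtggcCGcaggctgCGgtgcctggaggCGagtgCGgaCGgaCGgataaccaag
Plagl1: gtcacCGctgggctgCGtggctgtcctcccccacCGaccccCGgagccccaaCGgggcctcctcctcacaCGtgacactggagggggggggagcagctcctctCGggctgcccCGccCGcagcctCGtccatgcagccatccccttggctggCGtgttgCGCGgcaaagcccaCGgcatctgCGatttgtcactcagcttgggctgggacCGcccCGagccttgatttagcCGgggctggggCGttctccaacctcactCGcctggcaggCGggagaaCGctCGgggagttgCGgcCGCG
Grb10: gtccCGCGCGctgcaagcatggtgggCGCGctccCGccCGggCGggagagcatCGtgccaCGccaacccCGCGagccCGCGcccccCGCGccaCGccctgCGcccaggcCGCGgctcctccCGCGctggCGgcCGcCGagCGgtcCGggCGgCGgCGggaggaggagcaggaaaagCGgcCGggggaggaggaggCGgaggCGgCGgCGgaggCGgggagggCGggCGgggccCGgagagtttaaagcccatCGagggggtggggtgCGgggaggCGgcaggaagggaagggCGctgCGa
Dlk1: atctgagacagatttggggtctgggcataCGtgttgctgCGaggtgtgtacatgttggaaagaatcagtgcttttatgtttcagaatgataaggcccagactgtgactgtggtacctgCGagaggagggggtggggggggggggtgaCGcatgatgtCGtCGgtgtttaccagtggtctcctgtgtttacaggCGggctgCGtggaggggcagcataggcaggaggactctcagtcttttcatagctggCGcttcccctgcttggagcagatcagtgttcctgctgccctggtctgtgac

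The windows held 17 CpGs in Usp29, 20 in Zim1, 26 in Plagl1, 45 in Grb10 and 9 in Dlk1. The median was 7 over the 32851 windows of the table and 13 over the 43 windows found for 27 of the 31 genes, all but Impact, Peg10, Cdkn1c and Sgce. The Usp29 window runs head to head with that of Peg3 (chr7:6730370-6730669, −) and shares 263 bases with it, and of these neighbours one rose and the other was not called, as given below. Grb10 held the densest of the printed windows, and its gene fell, while a second window of Grb10 held 9 CpGs. Of the windows not printed, one of Ppp1r9a, which fell, held 48 and one of Cobl, which was not called, held 42. Whether density goes with the change was not tested. The 6-letter motif TGCCGC bound by Zfp57, searched on both strands, was present in 11 of the 43 windows (25.6%) against 11.6% of all windows, among them those of Zim1, Plagl1, Grb10, Meg3 and Mest, but not Usp29, Peg3 or Dlk1. It lay in a window of 5 of 12 paternally and 5 of 15 maternally expressed genes that had one. The 9-letter motif AANATGGCG of YY1, a factor studied at the Peg3 locus, was found in 1 of the 43 windows, that of Ube3a. This share is near the 2.38% of all windows. The Zfp57 motif itself holds a CpG, and the windows of the set held more CpGs (median 13 against 7). Its 2 shares were not compared at like CpG content. A match is a description of letters, and windows of one gene can overlap, as 2 Mest windows with the Zfp57 motif do.

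Set against wild type, the mutant lungs showed no common direction among the imprinted genes. The changes went both ways and differed in size, with Zim1 and Peg10 at the 2 ends. Over both CKO groups Zim1 fell most, to 0.187 of its wild type level, and Grb10, Dlk1, Ppp1r9a and Osbpl5 fell, whereas Peg10, Impact, Usp29 and Plagl1 rose. In all, 14 of 31 genes (45.2%) were called, 5 up and 9 down, against 26.5% of all genes tested (15.1% up and 11.5% down). The mutant and wild type libraries did not overlap for 12 of the 31, against 26.3% of all genes. Those 9 named genes kept their call when any 1 of the 9 libraries was left out. The other 5 calls (Cdkn1c, Meg3, Mirg, Mest and Magel2) each depended on single libraries, and 9 genes were called without WT_268_1 and 9 without WT_549_2.

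**Figure D1:**
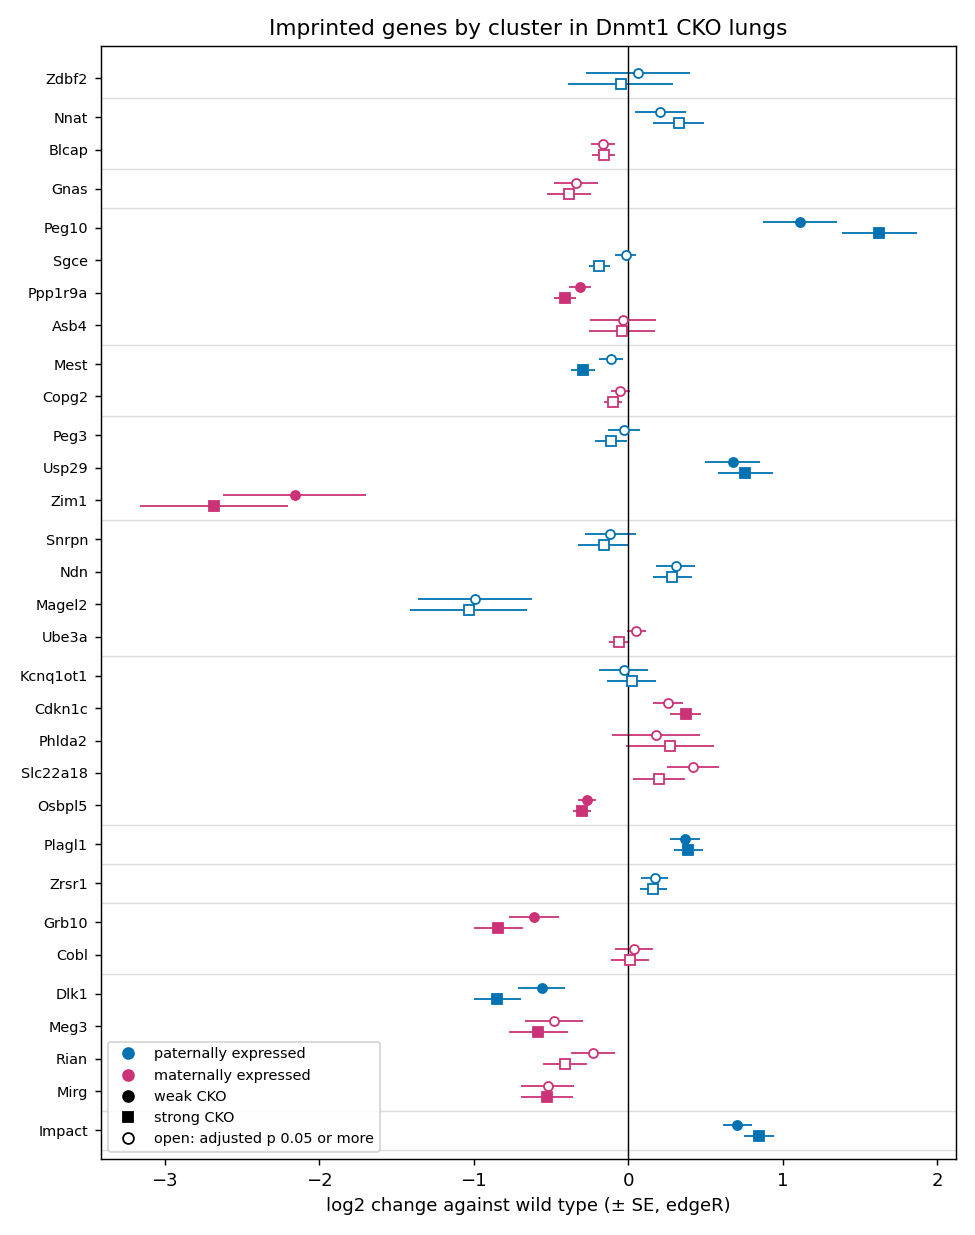
Log2 change against wild type (x axis, ± SE) of the 31 imprinted genes, grouped by cluster, in weak CKO (circles) and strong CKO (squares); blue marks paternally and magenta maternally expressed genes, and open symbols have an adjusted p of 0.05 or more. Zim1 lies farthest to the left and Peg10 farthest to the right, and weak and strong CKO lie close together for most genes.

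Among the paternally expressed genes, Impact, a cytosolic protein that binds GCN1 and restrains the translation brake set by GCN2 (chromosome 18, 12955852 to 12992950), had the smallest adjusted p of the set. It stood at 31.5, 39.3 and 36.4 CPM in WT_265_1, WT_268_1 and WT_549_2, at 62.1, 59.6 and 53.3 in MUT_W_265_2, MUT_W_268_3 and MUT_W_549_3, and at 65.2, 59.5 and 68.3 in MUT_S_265_5, MUT_S_268_4 and MUT_S_860_3. All 6 mutant libraries lay above all 3 wild type libraries. The change was 0.78 ± 0.09 over both CKO groups (adjusted p = 0.000167), 0.71 in weak and 0.85 in strong CKO, and it was the one call that held in weak CKO under every alternative run.

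Peg10, a gene derived from a retrotransposon and needed for the placenta (chromosome 6, 4747306 to 4760517), showed the largest rise. Its level was 12.5, 18.3 and 14.8 CPM in the wild type libraries, 33.7, 39.6 and 25.04 in weak CKO and 60.2, 34.2 and 46.1 in strong CKO, each in the order of library names given for Impact. No mutant library reached down to the wild type range. The change was 1.37 ± 0.22 over both CKO groups (adjusted p = 0.00241), or 0.72 on the log2(RPKM + 1) scale, which understates genes of low level.

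Usp29, a ubiquitin-specific protease gene that starts beside Peg3 (chromosome 7, 6730578 to 6967219), rose from a low level. It stood at 2.34, 3.04 and 2.77 CPM in wild type, 3.95, 5.13 and 3.95 in weak CKO and 4.41, 4.17 and 5.22 in strong CKO. The groups did not overlap. The change was 0.72 ± 0.16 (adjusted p = 0.00775), or 0.07 with log2(RPKM + 1) and 0.38 with log2(RPKM + 0.1). Of its exon bases 14.8% lie on those of other genes, among them Zim3 on the opposite strand, and since the strandedness of the counts is not given in the sources used here, reads there cannot be assigned.

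Plagl1, which encodes a zinc finger transcription factor that checks cell growth (chromosome 10, 13060504 to 13131694), rose less but from a high level. It was at 309, 369 and 326 CPM in wild type, 415, 486 and 395 in weak CKO and 449, 410 and 456 in strong CKO. Again every mutant library was above every wild type library, with a change of 0.38 ± 0.08 (adjusted p = 0.00853).

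Zim1, a maternally expressed zinc finger gene close to Peg3 (chromosome 7, 6671269 to 6696450), fell furthest of the 31. It measured 120, 54.9 and 41.2 CPM in WT_265_1, WT_268_1 and WT_549_2, 13.3, 13.5 and 21.7 in weak CKO and 11.2, 15.5 and 7.12 in strong CKO. WT_265_1 was the highest, and the lowest wild type library still exceeded the highest mutant library. The change was −2.42 ± 0.37 over both CKO groups (adjusted p = 0.00315) and −1.54 on the log2(RPKM + 1) scale.

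Grb10, an adaptor protein that binds insulin and IGF1 receptors and restrains growth (chromosome 11, 11930508 to 12038683), is among the more abundant of the set. It measured 631, 787 and 757 CPM in wild type, 399, 461 and 566 in weak CKO and 391, 486 and 338 in strong CKO. The groups did not overlap, and Grb10 fell by 0.72 ± 0.13 (adjusted p = 0.00377). In strong CKO alone its change of −0.84 became −0.54 with the haemoglobin level as a covariate and stayed called.

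Ppp1r9a and Osbpl5, both maternally expressed in some tissues only, fell little but evenly. Ppp1r9a, which encodes the actin-binding scaffold neurabin (chromosome 6, 4902917 to 5165661), measured 205, 202 and 198 CPM in wild type, 178, 163 and 146 in weak CKO and 151, 151 and 154 in strong CKO. Osbpl5, an oxysterol-binding protein gene at the far end of the Cdkn1c cluster (chromosome 7, 143688762 to 143756985), measured 129, 136 and 124 CPM in wild type, 111, 105 and 108 in weak CKO and 103, 106 and 107 in strong CKO. For neither gene did the groups overlap. The changes were −0.36 ± 0.06 for Ppp1r9a (adjusted p = 0.00215) and −0.28 ± 0.05 for Osbpl5 (adjusted p = 0.00211).

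The 4 genes of the Dlk1 to Meg3 cluster on chromosome 12 were all lower in the mutants, whichever parental copy they are read from. Dlk1, a paternally expressed membrane protein related to Notch ligands (109452823 to 109463336), measured 1267, 1003 and 949 CPM in wild type, 589, 815 and 784 in weak CKO and 515, 618 and 657 in strong CKO. All mutant libraries were below all wild type libraries, and Dlk1 fell by 0.70 ± 0.13 (adjusted p = 0.00327). Meg3, Rian and Mirg are maternally expressed noncoding RNAs that lie in a row on one strand, Rian and Mirg as hosts of small nucleolar RNAs and microRNAs.

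Meg3 measured 1196, 1313 and 1819 CPM in wild type, 769, 1175 and 1160 in weak CKO and 877, 992 and 1024 in strong CKO, with WT_549_2 far above the others and no overlap. Its change of −0.53 ± 0.16 (adjusted p = 0.0360) was no longer called without WT_549_2 (−0.33), WT_268_1 (−0.59), MUT_S_265_5 (−0.49), MUT_S_268_4 (−0.54) or MUT_S_860_3 (−0.55). Mirg measured 54.3, 67.4 and 73.2 CPM in wild type, 33.3, 55.4 and 47.0 in weak CKO and 44.1, 45.2 and 46.2 in strong CKO. One weak CKO library reached into the wild type range. Mirg was at −0.52 ± 0.14 (adjusted p = 0.0240), a call that ended without WT_268_1 (−0.50), WT_549_2 (−0.43) or MUT_S_265_5 (−0.51). Rian, at 742, 901 and 820 CPM in wild type and 510 to 807 in the mutants, was at −0.32 ± 0.12 and was not called (adjusted p = 0.0814).

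The remaining calls over both CKO groups were near the threshold. Cdkn1c, the cyclin-dependent kinase inhibitor p57 (chromosome 7, 143458339 to 143461050), is maternally expressed and was the only one of the 16 in that class called higher over both CKO groups. It measured 153, 144 and 148 CPM in wild type, 188, 160 and 184 in weak CKO and 222, 170 and 184 in strong CKO, with no overlap. Its change of 0.32 ± 0.09 (adjusted p = 0.0226) was not called without WT_268_1 (0.30) or WT_549_2 (0.31). Of its exon bases 30.7% are shared with a gene on the opposite strand.

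Mest, a paternally expressed gene of the alpha/beta hydrolase fold, measured 721, 695 and 751 CPM in wild type, 629, 661 and 722 in weak CKO and 578, 624 and 567 in strong CKO. The strong CKO libraries lay below wild type and the weak CKO libraries overlapped it. Over both groups Mest was at −0.20 ± 0.07 (adjusted p = 0.0494), and the call was lost in every fit that left out a library other than MUT_W_549_3 (−0.23 to −0.17). Magel2, a paternally expressed MAGE family gene, was read 6 to 23 times per library and was at −1.01 ± 0.31 (adjusted p = 0.0351), or −0.08 with log2(RPKM + 1). Its call likewise was lost without any library but MUT_W_549_3 (−1.13 to −0.88). The calls of Meg3, Mest and Magel2 also ended with the haemoglobin level as a covariate, at −0.52, −0.19 and −0.99.

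**Figure D2:**
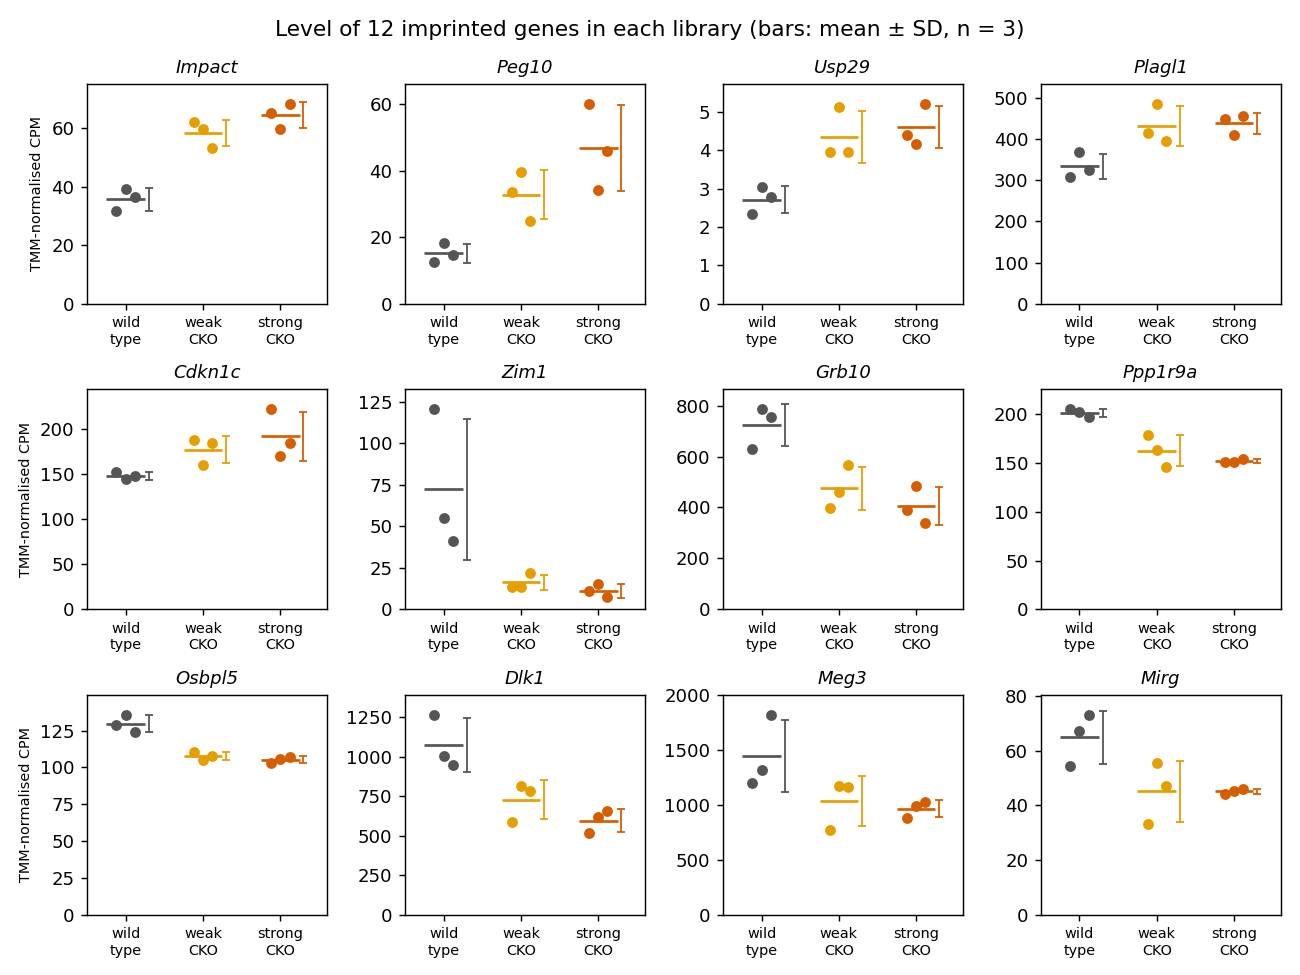
Level in TMM-normalised CPM (y axis, from 0) of 12 imprinted genes in each of the 9 libraries; points are libraries, horizontal lines group means and vertical bars ± SD of 3 libraries. Impact, Peg10, Usp29, Plagl1 and Cdkn1c are higher in all 6 mutant libraries than in any wild type library, and Zim1, Grb10, Ppp1r9a, Osbpl5, Dlk1 and Meg3 are lower in all 6.

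The other 17 genes were not called over both CKO groups, with changes from −0.36 (Gnas, the stimulatory G protein alpha subunit, adjusted p = 0.0515) to 0.31 (Slc22a18, a membrane transporter). Of these, 12 were called in none of the alternatives in any comparison with wild type: Zdbf2, Blcap, Sgce, Asb4, Copg2, Peg3, Snrpn, Ube3a, Kcnq1ot1, Phlda2, Slc22a18 and Cobl. They include abundant RNAs, for which the data bound the change. Peg3, a zinc finger gene at 475 to 578 CPM in wild type and 452 to 588 in the mutants, was at −0.07 with a 95% interval of −0.29 to 0.15. Kcnq1ot1, the noncoding RNA read antisense to Kcnq1, was at −0.00 with an interval of −0.34 to 0.33. A value that misses the threshold does not show that these genes were unaffected. Nnat, Gnas, Ndn, Zrsr1 and Rian were called in at least 1 alternative over both CKO groups.

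By parental class, 4 of 15 paternally expressed genes rose (Impact, Peg10, Usp29 and Plagl1) and 3 fell (Dlk1, Mest and Magel2), with a median log2 change of 0.01. Of 16 maternally expressed genes 1 rose (Cdkn1c) and 6 fell (Zim1, Grb10, Ppp1r9a, Osbpl5, Meg3 and Mirg), with a median of −0.22. Over all genes tested the median was −0.01, and 15.1% rose and 11.5% fell. The paternal median was 0.11 without WT_268_1 and 0.14 without WT_549_2. The 9 maternally expressed genes that are broadly imprinted had 1 rise and 4 falls and a median of −0.32, and the 7 that are tissue restricted had 2 falls and a median of −0.16. In weak CKO 4 paternally expressed genes rose and 1 fell (median 0.06), and of the maternally expressed ones 4 fell (−0.19), beside 9.09% up and 5.38% down of all genes tested. In strong CKO these counts were 4 and 2 (0.02), and 1 and 6 (−0.23), beside 14.6% up and 11.0% down. The class medians are descriptions, since genes of a cluster share control regions and are not replicates.

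Pairs of neighbours differed in whether they moved apart, also within 1 cluster. Within a library the ratio of 2 genes does not depend on library scaling, and for 2 pairs the log2 ratio of the paternally to the maternally expressed gene separated the groups fully. Peg3 to Zim1 was 2.26, 3.29 and 3.53 in the wild type libraries, 5.46, 5.17 and 4.50 in weak CKO and 5.56, 4.997 and 5.99 in strong CKO, a difference of 2.25 between the means of the mutant and wild type libraries. Peg3 itself was not called, so this ratio restates the fall of Zim1. Peg10 to Ppp1r9a was −4.04, −3.47 and −3.74 in wild type, −2.40, −2.04 and −2.55 in weak CKO and −1.33, −2.14 and −1.74 in strong CKO, a difference of 1.72. Peg10 and Ppp1r9a each separated the groups, in opposite directions, so their ratio had to do so and adds no support.

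The remaining 6 pairs overlapped between the mutant and wild type libraries. The differences were 0.43 for Nnat to Blcap, −0.07 for Sgce to Asb4, −0.13 for Mest to Copg2, −0.15 for Snrpn to Ube3a, −0.18 for Dlk1 to Meg3 and −0.29 for Kcnq1ot1 to Cdkn1c. Against the strong CKO libraries alone, Nnat to Blcap was higher (1.42 to 1.71 against 0.76 to 1.33) and Mest to Copg2 was lower (2.63 to 2.64 against 2.71 to 2.97) in every library. Mest and Copg2 overlap tail to tail, with 23.1% and 17.8% of their exon bases shared, and 27.3% of those of Ube3a are shared with genes of the other strand such as Snhg14, so these ratios can hold reads of the partner.

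**Figure D3:**
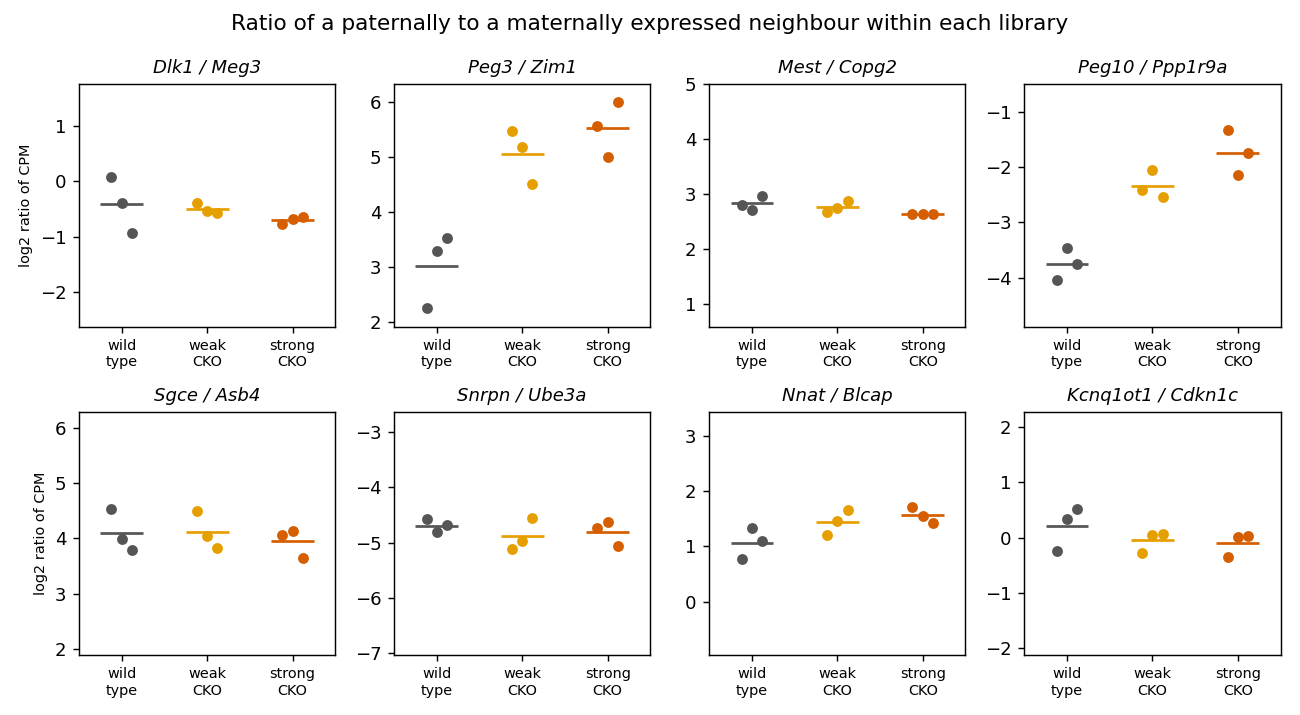
Log2 ratio of CPM (y axis, each panel spanning 4.4 units) of a paternally to a maternally expressed gene of the same cluster in each of the 9 libraries, with group means as lines. Peg3 to Zim1 and Peg10 to Ppp1r9a are higher in all 6 mutant libraries, and the other 6 pairs overlap.

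Called genes lay next to ones that were not. In the Peg10 cluster Peg10 rose and Ppp1r9a fell, while Sgce, which starts head to head with Peg10 and encodes epsilon-sarcoglycan, was at −0.10 ± 0.06 and Asb4, an ankyrin repeat protein gene, at −0.04 ± 0.18. Beside Grb10 the actin nucleator gene Cobl was at 0.02 ± 0.11. In the Kcnq1ot1 cluster Cdkn1c rose and Osbpl5 fell, with Phlda2, a pleckstrin homology domain gene, at 0.23 ± 0.25 and Slc22a18 at 0.31 ± 0.15. In the Snrpn to Ndn cluster the splicing factor gene Snrpn was at −0.14 ± 0.14, the growth suppressor necdin gene Ndn at 0.30 ± 0.11 and the ubiquitin ligase gene Ube3a at −0.00 ± 0.05.

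In weak CKO, the lungs without haemorrhage, 9 of the 31 genes were called, 4 up and 5 down, 29.0% against 14.5% of all genes tested (9.09% up and 5.38% down). The weak CKO libraries did not overlap wild type for 14 of the 31, against 31.4% of all genes. Impact (0.71), Peg10 (1.11), Usp29 (0.68) and Plagl1 (0.37) rose, and Zim1 (−2.16), Grb10 (−0.61), Dlk1 (−0.56), Ppp1r9a (−0.31) and Osbpl5 (−0.27) fell. Impact alone kept its call whichever library was left out. Without MUT_W_268_3 the calls of Peg10 (0.95), Usp29 (0.54), Plagl1 (0.28), Zim1 (−2.04), Grb10 (−0.58), Dlk1 (−0.64), Ppp1r9a (−0.31) and Osbpl5 (−0.24) ended. Without MUT_W_265_2 those of Peg10 (1.09), Usp29 (0.74), Plagl1 (0.40), Zim1 (−2.04), Grb10 (−0.50) and Dlk1 (−0.42) ended, and without WT_549_2 those of Peg10 (1.09), Usp29 (0.69), Plagl1 (0.35) and Grb10 (−0.58). Without WT_265_1 Peg10 (0.99), Usp29 (0.58), Plagl1 (0.32) and Dlk1 (−0.42) were not called. The Grb10 call further ended without WT_268_1 (−0.55) or MUT_S_265_5 (−0.60), and that of Dlk1 without WT_268_1 (−0.60), MUT_W_549_3 (−0.61) or MUT_S_268_4 (−0.55). With the haemoglobin level as a covariate Usp29 (0.68), Plagl1 (0.35), Zim1 (−2.05) and Dlk1 (−0.45) were not called. In a fit of the weak CKO and wild type libraries alone Usp29 (0.68), Plagl1 (0.37) and Dlk1 (−0.55) were not, and on the log2(RPKM + 1) scale Usp29 (0.07) and Dlk1 (−0.54) were not. The count was 5 without WT_549_2, 3 without MUT_W_265_2 and 2 without MUT_W_268_3. The directions of the 9 were the same in each of these fits.

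In strong CKO, 13 of the 31 genes were called, 5 up and 8 down, 41.9% against 25.6% of all genes tested (14.6% up and 11.0% down). The strong CKO libraries did not overlap wild type for 18 of the 31, against 41.7% of all genes, with all 4 genes of the Dlk1 to Meg3 cluster below it. The 9 genes called in weak CKO were called again in the same directions, with Impact at 0.85, Peg10 at 1.63, Usp29 at 0.76, Plagl1 at 0.39, Zim1 at −2.68, Grb10 at −0.84, Dlk1 at −0.85, Ppp1r9a at −0.41 and Osbpl5 at −0.30. Both comparisons use the same wild type libraries, so the repeat is not independent. Cdkn1c (0.37), Mest (−0.29), Meg3 (−0.58) and Mirg (−0.53) were called in addition. Without MUT_S_265_5 the calls of Plagl1 (0.38), Cdkn1c (0.26), Mest (−0.27), Meg3 (−0.51) and Mirg (−0.50) ended, leaving 8, and without MUT_S_860_3 those of Plagl1 (0.37), Mest (−0.26), Meg3 (−0.62) and Mirg (−0.53). Without WT_549_2 Cdkn1c (0.37), Mest (−0.26), Meg3 (−0.38) and Mirg (−0.43) were not called, and without WT_268_1 Cdkn1c (0.35), Meg3 (−0.64) and Mirg (−0.50) were not. Meg3 and Mirg also lost their calls without MUT_S_268_4 (−0.60 and −0.52) or MUT_W_549_3 (−0.58 and −0.52), and Meg3 without MUT_W_268_3 (−0.58). With the haemoglobin level as a covariate Usp29 (0.75), Plagl1 (0.43), Cdkn1c (0.37), Mest (−0.25), Meg3 (−0.53) and Mirg (−0.39) were not called. That fit called 8 genes, 7 of them among the 13.

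Between strong and weak CKO none of the 31 genes was called by edgeR or by DESeq2, where 0.00516% of all genes tested were called, and 2 reached an unadjusted p under 0.05 in edgeR, Sgce (−0.17) and Mest (−0.18). The intervals leave room for differences. Strong minus weak was 0.51 for Peg10 with a 95% interval of −0.06 to 1.09, and −0.52 for Zim1 with an interval of −1.67 to 0.62. The strong CKO libraries did not overlap the weak CKO libraries for Sgce, Mest and Ube3a, all lower in strong CKO, while 13.4% of all genes tested showed no overlap.

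The surroundings of the clusters were looked at after the data had been seen. In the span of each cluster and 500000 bases to either side of it, 156 other genes were tested. Of these, 26 rose and 23 fell over both CKO groups (31.4%, against 26.5% of all genes tested). In the Peg3 cluster 6 of 18 rose and 1 fell. Of the 6, Olfr1349, Aurkc, Gm44697 and Zfp264 had only 0, 2, 5 and 11 counts over the wild type libraries together. Zfp773, a zinc finger gene and another of the 6, went from 1.08, 1.07 and 1.18 CPM in wild type to 2.66 to 5.42 in the mutants (1.71 ± 0.22, adjusted p = 0.000392). Around Snrpn and Ndn 6 of 14 rose, among them Gm7394 and Gm44742 with only 0 and 4 wild type counts. The 6 also include Snhg14, the long noncoding RNA read antisense to Ube3a, at 9.07, 13.1 and 9.12 CPM in wild type and 15.1 to 17.6 in the mutants (0.65 ± 0.12, adjusted p = 0.00341), while Ube3a itself was not called. In the Kcnq1ot1 cluster 4 of 17 rose and 2 fell, among them the ion channel gene Trpm5 (1.39 ± 0.18, adjusted p = 0.000411) and the TNF receptor family gene Tnfrsf26 (1.12 ± 0.21, adjusted p = 0.00313).

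The Dlk1 to Meg3 cluster had no such rises. All 15 neighbours tested were below 0, from −0.84 to −0.08, as were the 4 imprinted genes, and 1 neighbour, the small nucleolar RNA gene Gm24564, was called. Several of these neighbours lie inside the noncoding RNAs of the cluster and can share their reads, so they are not separate measurements.

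**Figure D4:**
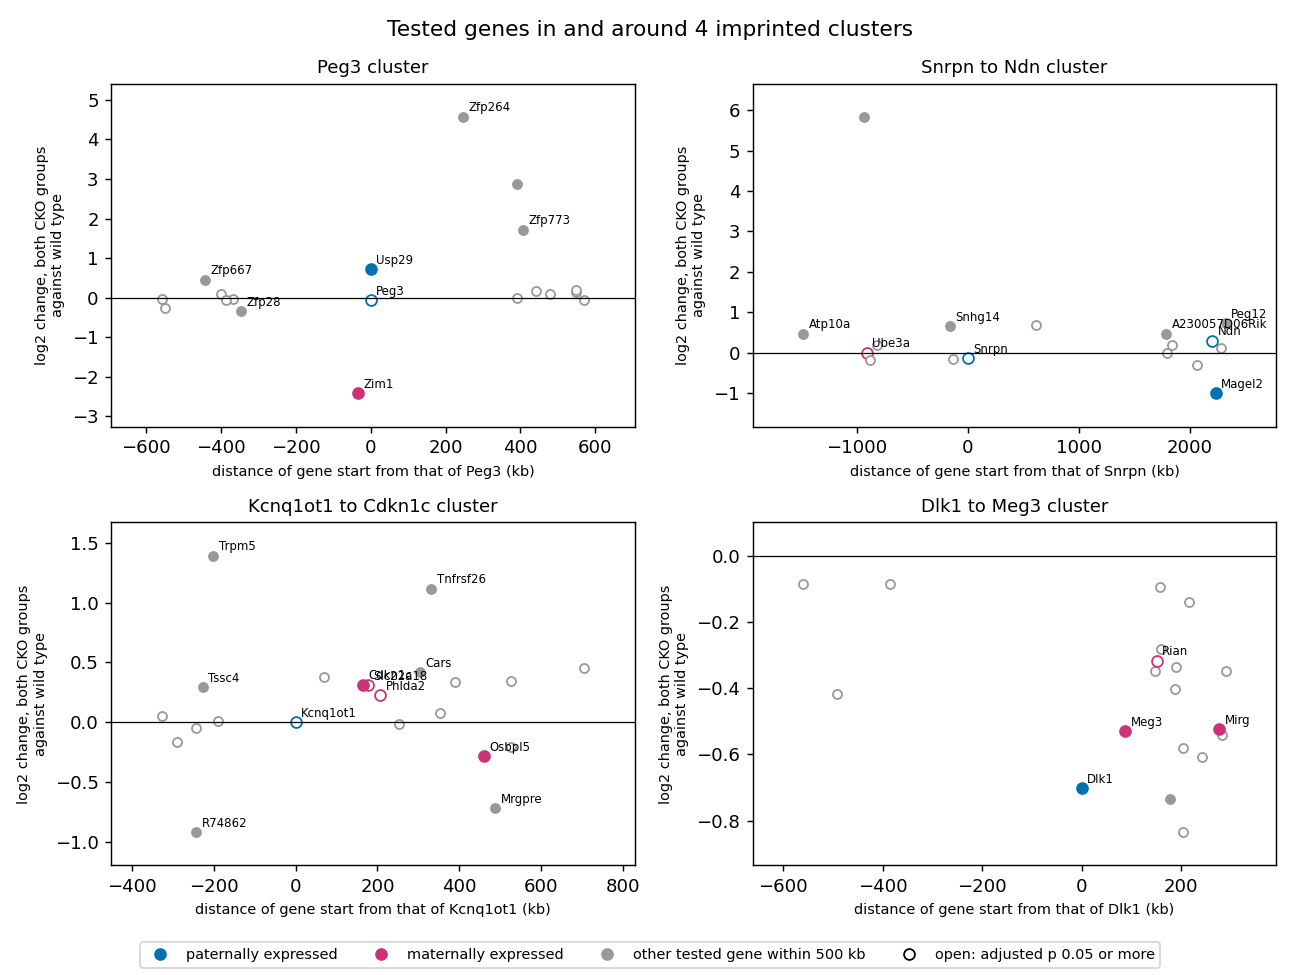
Log2 change over both CKO groups against wild type (y axis) by distance of gene start from the first named gene (x axis, kb) in 4 clusters. Blue and magenta are paternally and maternally expressed genes. Grey are other tested genes in the span of a cluster or within 500 kb of that span. Open symbols have an adjusted p of 0.05 or more, and genes with 3 or fewer wild type counts are not drawn. Rises and falls mix in the first 3 clusters, while every gene around Dlk1 lies below 0.

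On a scale per length, here CPM per kilobase of merged exons, the set spans a wide range in wild type lung. Dlk1 (190 ± 30.1, SD, n = 3) and Mest (183 ± 7.04) were highest and did not differ beyond their spread, followed by Meg3 (79.8 ± 18.3), Grb10 (79.8 ± 9.06), Cdkn1c (72.7 ± 2.13) and Nnat (70.9 ± 13.5), again within their spread. Rian (45.0 ± 4.38), Plagl1 (42.8 ± 3.90) and Peg3 (39.8 ± 3.89) came next, and Phlda2 (0.557 ± 0.0983), Usp29 (0.150 ± 0.0195) and Magel2 (0.137 ± 0.0231) were lowest. In strong CKO the order of levels opened with Mest (149.5 ± 7.63), Dlk1 (105.5 ± 12.9), Cdkn1c (94.2 ± 13.3), Nnat (89.0 ± 8.18) and Plagl1 (56.1 ± 3.17), ahead of Meg3 (53.3 ± 4.26) and Grb10 (44.55 ± 8.25). The deposited RPKM uses a length close to the sum over all transcripts of a gene, which lowers genes with many transcripts, and orders wild type as Mest (55.7), Dlk1 (48.5), Meg3 (44.1) and Grb10 (36.2). In strong CKO the deposited RPKM gives another order than the merged exons, opening with Mest (45.9), Cdkn1c (31.4), Meg3 (29.8) and Dlk1 (27.2), with Grb10 (20.4), Nnat (17.6) and Plagl1 (16.4) lower.

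Of 16 tested genes that act in maintaining imprints or in DNA methylation, over both CKO groups 1 rose and 3 fell, with a median of −0.10. That is 25% called, near the 26.5% of all genes tested. Hells, a chromatin remodeller that assists DNA methylation, rose from 15.7, 30.7 and 21.9 CPM to 31.4 to 40.0 in the mutants (0.66 ± 0.17, adjusted p = 0.0191), a call that ended without WT_549_2 (0.63). Beside Dnmt1, the demethylase gene Tet1 was at −0.27 ± 0.07 (adjusted p = 0.0136). The Tet1 call ended without WT_268_1 (−0.21), with log2(RPKM + 1) (−0.13) and with log2(RPKM + 0.1) (−0.23). Zfp57, which guards methylation at imprinted control regions, was at 54.6, 73.4 and 76.5 CPM in wild type and 44.9 to 57.5 in the mutants (−0.35 ± 0.11, adjusted p = 0.0366). Wild type and mutant libraries overlapped for Zfp57, and its call ended without WT_268_1 (−0.30), WT_549_2 (−0.26), MUT_W_265_2 (−0.31), MUT_W_268_3 (−0.35), MUT_S_265_5 (−0.35), MUT_S_268_4 (−0.36) or MUT_S_860_3 (−0.33). In weak CKO none of the 16 was called by edgeR, against 14.5% of all genes, with 3 at an unadjusted p under 0.05. In strong CKO 1 rose and 4 fell (31.2%, against 25.6% of all genes).

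Of 31 tested further imprinted genes and close neighbours, 6 rose and 2 fell over both CKO groups, with a median of 0.01. Their share of 25.8% called is near the 26.5% of all genes tested. This list overlaps the 156 neighbours described above and is not a separate set. Zfp264, Peg12, Cars, Tssc4 and Ddc, which rose, and Casd1, which fell, were counted there too. Zfp264, a transcript downstream of Usp29 in the Peg3 cluster, was at 0.314, 0.0646 and 0 CPM in wild type, 2.66, 3.13 and 1.53 in weak CKO and 6.63, 1.93 and 2.31 in strong CKO, with a change of 4.57 ± 0.81 (adjusted p = 0.00354) that rests on 11 wild type counts, was 6.37 without WT_265_1 and 0.65 with log2(RPKM + 1). Peg12, beside Ndn and Magel2, rose and stood at 5.58, 7.04 and 5.35 CPM in wild type against 8.37 to 12.3 in the mutants (0.73 ± 0.13, adjusted p = 0.00288). Cars, in the Kcnq1ot1 cluster, rose by 0.42 ± 0.08 (adjusted p = 0.00531), and Peg13, a noncoding RNA on chromosome 15, fell and stood at 47.8, 44.9 and 43.6 CPM in wild type against 29.8 to 35.8 in the mutants (−0.51 ± 0.07, adjusted p = 0.000488). Peg12, Peg13 and Zfp264 showed no overlap between mutant and wild type libraries.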

How the data were processed

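Whole E18.5 lungs were profiled by RNA sequencing (TruSeq, single reads of 75 nt, 50 M reads stated per sample, per the labels' protocols). One table deposited by the authors was used. It holds raw counts per gene, 1 column per library, deposited by the authors, and RPKM values, per the file headers. Its gene length was deposited by the authors and was within 10% of the summed exon length of all transcripts for 97.2% of genes. The submitters' processing notes name STAR, GRCm38.p6, edgeR 3.28.1, Trimmomatic 0.36, cutadapt 2.5 and FastQC 0.11.8, without their roles. The counting tool, strandedness and treatment of multiply mapped reads are not given in the sources used here. Genes that share exons are therefore uncertain.

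Counts were tested with edgeR 4.0.16 in R 4.3.3 (TMM, filterByExpr by group, robust quasi-likelihood fit of all 9 libraries, 1 mean per group, two-sided F tests, Benjamini-Hochberg over 19374 genes, threshold 0.05). The 95% intervals use the t distribution with 6 residual degrees of freedom. The test was checked on simulated data. The main contrast set wild type against the average of the CKO groups, beside weak, strong, and strong against weak CKO, which share libraries. Alternatives were other normalizations, no filter, DESeq2 1.42.0, limma 3.58.1 on log2(RPKM + 1) and log2(RPKM + 0.1), only the groups compared, the library number as a block, the haemoglobin level as a covariate, haemoglobin genes left out, and each library left out. Exons and positions are from GENCODE vM21, promoter windows from RefSeq. Values per library were given for genes called in weak or strong CKO, of other lists for up to 4 called genes of smallest adjusted p. The members and lists were chosen with earlier results of these data known.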

Additional observations from a re-analysis of the deposited data

How the results depend on the processing

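No called result changed direction, while the median of the paternally expressed genes, near 0, took either sign. Counts of called genes, with each library left out in turn, ran from 2 to 10 in weak CKO (9 with all libraries), 8 to 15 in strong CKO (13) and 9 to 15 over both groups (14). With the haemoglobin level as a covariate strong CKO gave 8, and strong against weak CKO gave 0 under every setting. Medians with a library left out ran from −0.23 to −0.14 for the maternally expressed genes in weak CKO, from −0.042 to 0.13 for the paternally expressed ones in strong CKO and from −0.02 to 0.14 for them over both groups. In strong CKO the maternal median was −0.14 with the haemoglobin covariate and −0.17 with log2(RPKM + 1). Dnmt1 was called in weak CKO with DESeq2 (−0.52), the haemoglobin covariate (−0.66) and without WT_265_1 (−0.65) or MUT_W_549_3 (−0.63), with a range of −0.65 to −0.34 over the libraries left out. In strong CKO it was not called with upper quartile factors (−0.51), without a filter (−0.52), in a fit of those 6 libraries (−0.53), the covariate (−0.22), log2(RPKM + 1) (−0.38), log2(RPKM + 0.1) (−0.49) or with some libraries left out (range −0.67 to −0.36). Over both groups Dnmt1 ran from −0.66 to −0.35 with a library left out.

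What the library numbers mark is not stated, and the evidence for pairing is mixed. After the group mean of each gene was subtracted, same-numbered libraries correlated at −0.07 to 0.40. Compared with libraries of other groups only, 6 libraries correlated best with one of their own number, while MUT_S_860_3 shares its number with none. With the number as a block (replicate block), 10 genes were called in weak CKO (6 of them among the 9), 10 in strong CKO (8 of the 13) and 14 over both groups (11 of the 14, without Mest, Magel2 and Zim1, which was at −2.24 with an adjusted p of 0.0582, and also not called in either phenotype). The block put the strong CKO medians at 0.12 (paternal) and −0.16 (maternal) and Dnmt1 in weak CKO at −0.50, where it was called. Restricting the fit to the groups compared does not apply to both CKO groups. Low counts limit Magel2, Usp29, Phlda2 and Zfp264.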

Other observations

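The surroundings of the other clusters were also looked at after the data had been seen, over both CKO groups, where 15.1% of all genes tested rose and 11.5% fell. Of the tested neighbours, 4 of 7 near Grb10 and Cobl rose, 1 of 13 near Zdbf2 rose and 6 fell, 2 of 10 near Zrsr1 rose and 2 fell, and 2 of 14 near Peg10 and Sgce rose and 3 fell. Among these risers, Gm12003 near Grb10 and Gm44380 near Peg10 had only 1 and 2 counts over the wild type libraries together. Near Nnat and Blcap 1 of 11 rose and 2 fell. Falls without rises were called for 2 of 12 near Gnas, 2 of 9 near Plagl1, 1 of 11 near Mest and Copg2 and 1 of 5 near Impact. All 5 neighbours of Impact, which itself rose, were below 0.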
